A study of Mus musculus with 6 samples.

Results

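Alveolar type I cell genes were compared in whole lung of ob/ob mice, which lack leptin, after treatment with leptin or with saline. The set names 10 genes, Aqp5, Pdpn, Ager, Hopx, Cldn18, Emp2, Clic5, Gprc5a, Akap5 and Sema3e. They were chosen as known markers of this cell type and not by their values, though earlier results of these data were known. Probe sets were taken where the platform annotation gives 1 symbol, and 7 of the 10 genes had such a probe set, 13 probe sets in all, among the 12393 genes named this way on the array. Clic5, Gprc5a and Akap5 had none and have no value here. All animals were females of strain B6.V-Lepob/J, whose mutant Lep gene yields no working hormone, at 1 month of age. The labels name 1 difference between the groups, treatment with leptin in 3 animals and with saline in 3, with 1 lung sample and 1 Affymetrix Mouse 430A array per animal. The saline controls carry the same ob/ob mutation as the treated animals, so the comparison concerns replacement of a hormone that both groups lack. The sources used here give no dose, route or duration.

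Type I cells are the thin, flat epithelial cells that cover most of the alveolar surface, and gases cross them to reach the capillaries. They can arise from type II cells, the cuboidal cells that make surfactant. Their known products include a water channel, tight junction and membrane proteins, and the receptor RAGE, which the lung carries at unusually high levels. In whole lung, fewer cells of a type and less RNA per cell cannot be told apart.

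One array stood apart and is kept apart in the main comparison. The log2 values of saline replicate 1 correlated at 0.438 to 0.447 with those of the other 5 arrays, which correlated with each other at 0.973 to 0.978 (Pearson's r over probe sets, which do not count as replicates). On that array the 14 hybridisation control probe sets read a median 29.8 times the level on the others, against 0.946 to 1.13 elsewhere. The labels call all animals female, yet Uty, a Y-linked gene, read 1108.1 on saline replicate 1 against 12.7 to 67.3 on the other arrays. Xist, from the inactive X chromosome, read 7896 against 2697 to 3646. Uty has 2 probe sets and Xist 3, and the one shown has the highest value on any of the 6 arrays. That choice favours probe sets that read high on saline replicate 1. Eif2s3y, also Y-linked and with 1 probe set, read 84.9 there against 1.2 to 3.4. On that array 54.6% of all probe sets read above the other 5. Each result is therefore given for 3 leptin arrays against saline replicates 2 and 3 (5 arrays), and again with all 6 arrays.

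The markers of the set were bright on the 5 arrays that resembled each other. The 13 probe sets had a median brightness percentile of 96.6 to 97.5 among all probe sets of an array, from 31.7 for 1 Sema3e probe set to 100 for Hopx. Brightness also depends on the probe set, so these ranks do not order the genes by abundance. On saline replicate 1 the median percentile was 58.2, from 22.8 to 98.9.

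Promoter windows from RefSeq (GRCm38.p6, 250 bases before to 50 after the start site, 300 bases) were available for 9 of the 10 genes, in 11 windows, and Gprc5a had none. The windows of Aqp5 and Pdpn are shown because these genes, each with 1 probe set, went opposite ways on saline replicate 1, as described further on. Aqp5 lies at chr15:99590778-99591077 on the + strand and Pdpn at chr4:143299515-143299814 on the - strand. Capitals mark the GC box, GGGCGG on either strand, the core of Sp1 family sites. The search also covered TEAD (GGAATG), NKX2-1 (CAAGTG) and TATA box (TATAAA) letters on both strands, and no match of these lies in either window.
Aqp5: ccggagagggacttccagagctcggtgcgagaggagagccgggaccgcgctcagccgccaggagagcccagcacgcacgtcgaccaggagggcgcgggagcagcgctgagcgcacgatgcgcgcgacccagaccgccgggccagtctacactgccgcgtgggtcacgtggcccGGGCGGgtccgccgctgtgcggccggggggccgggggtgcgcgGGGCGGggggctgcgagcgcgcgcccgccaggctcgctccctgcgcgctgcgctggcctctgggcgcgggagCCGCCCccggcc
Pdpn: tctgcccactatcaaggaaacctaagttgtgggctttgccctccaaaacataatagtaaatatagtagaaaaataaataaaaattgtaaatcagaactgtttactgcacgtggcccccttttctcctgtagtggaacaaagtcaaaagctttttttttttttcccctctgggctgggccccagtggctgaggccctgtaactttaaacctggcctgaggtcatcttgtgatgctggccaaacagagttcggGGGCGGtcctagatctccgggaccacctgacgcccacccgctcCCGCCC
The Aqp5 window is 79.7% G and C with 3 GC boxes, and the Pdpn window is 48.7% G and C with 2, against a median of 52.7% over all windows. Of the 11 windows, 6 held a GC box, as did 35.7% of all 32851 windows of this length. The NKX2-1 letters, named for a lung lineage factor, were in 2 windows, 1 each of Hopx and Cldn18, against 13.6% of all. TEAD and TATA box letters were in 0 of the 11, against 14.7% and 13.6% of all. A match describes letters only, and no match says nothing about a factor.

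With saline replicate 1 kept apart, no alveolar type I gene passed the threshold, and the measured differences were small for 6 of the 7 genes. Probe sets of Aqp5, Hopx, Ager, Cldn18, Emp2 and Pdpn differed by -0.19 to 0.14 on the log2 scale, leptin minus saline. Sema3e, which encodes a secreted guidance signal, had the 2 highest differences, at 0.78 and 0.35. All differences here are on the log2(intensity + 22) scale, with 22 chosen as the 10th percentile over the whole table. Of the 13 probe sets 0 passed an adjusted p of 0.05 in limma, against 0.0442% of all 15839 tested, and each was at an adjusted p of 1. The unadjusted limma p was under 0.05 for 1 of 13, against 4.6% of all (higher with leptin, against 2.61%). A 2-sample test with pooled variance also gave 1, but another gene, at an adjusted p of 0.999 in that test. The share of all probe sets under 0.05 in the pooled test was not counted. Limma's was 1425906_a_at of Sema3e, higher with leptin, and the pooled test's was Aqp5, lower with leptin, and neither test gave the other's probe set. The rule stated by the series (1.5-fold, p under 0.05, and here 4 of 6 pairwise comparisons) was met by 0 of 13, against 0.492% of all. A p that misses the threshold does not show equal expression, but the intervals bound the differences: for 11 of 13 probe sets the 95% interval lay within 1.5-fold in both directions, as it did for 58.2% of all probe sets. The p-values measure the spread between these animals' arrays, and the number of arrays limits the precision.

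**Figure D1:**
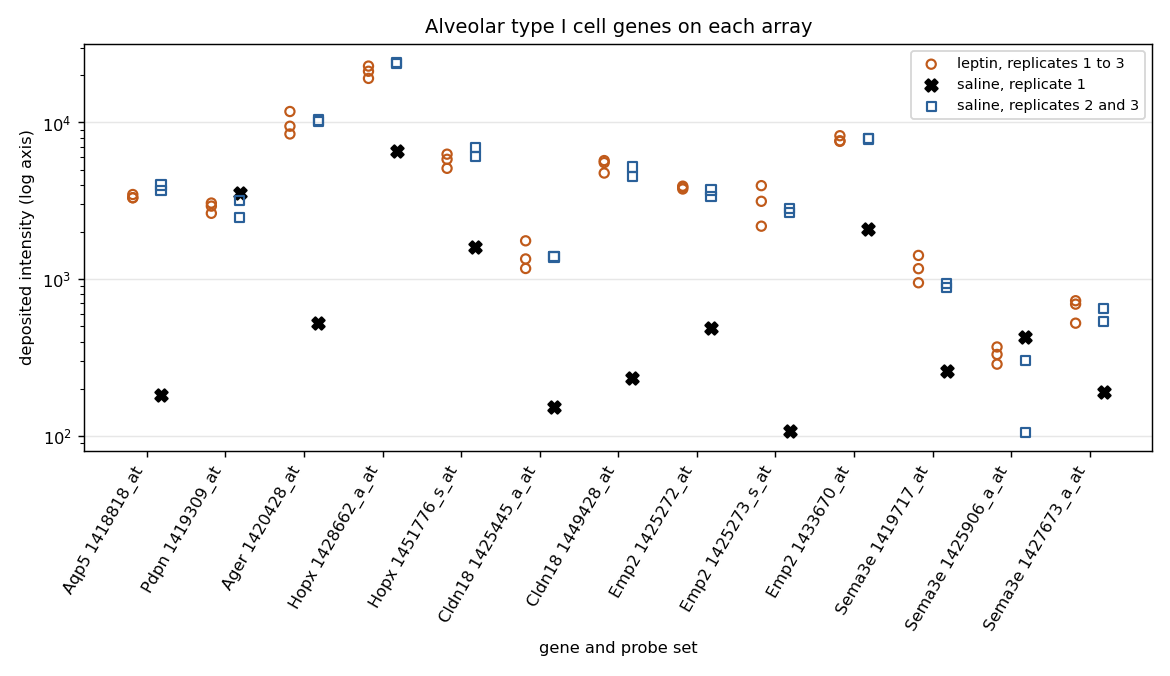
Deposited intensity (log axis) of the 13 probe sets of alveolar type I cell genes on each array; circles are leptin arrays, squares saline replicates 2 and 3, and crosses saline replicate 1. Circles and squares lie close together for most probe sets, while crosses lie below all other arrays for 11 and above them for Pdpn and 1 Sema3e probe set.

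Aqp5 (Entrez Gene 11830) encodes aquaporin 5, the water channel of the apical type I cell membrane. Its probe set read 3307, 3310 and 3469 on the leptin arrays, then 3675 and 3994 on saline replicates 2 and 3, and 183.2 on saline replicate 1. The leptin arrays all read below saline replicates 2 and 3, without overlap. The difference was -0.19 ± 0.11 (log2, SE; n = 3 and 2), with a 95% interval of -0.44 to 0.06, at a limma adjusted p of 1. Groups without overlap were found for 4 of the 13 probe sets, 2 in each direction, against 19.6% of all probe sets, so this separation is near the background.

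Pdpn (14726) encodes podoplanin, a mucin-type surface glycoprotein that lymphatic endothelium and mesothelium also carry. It read 2632, 2925 and 3060 with leptin, compared with 2484 and 3164 on saline replicates 2 and 3, and 3534 on saline replicate 1. The 2 saline arrays bracketed all 3 leptin arrays. The difference on 5 arrays was 0.03 ± 0.14 (SE), with an interval of -0.28 to 0.34.

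Ager (11596) encodes RAGE, a pattern recognition receptor of the basolateral type I cell membrane. It read 9460, 11743 and 8443 with leptin, compared with 10374 and 10130 on saline replicates 2 and 3, and 522.7 on saline replicate 1. The leptin arrays spread to both sides of the saline arrays, with a mean of 9882 ± 1690 (SD, n = 3) against 10250 ± 173 (SD, n = 2). The difference was -0.07 ± 0.14 (SE), from 0.774-fold to 1.18-fold by its 95% interval.

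Hopx (74318) encodes a small homeodomain protein that acts on transcription without binding DNA itself. Its brighter probe set, 1428662_a_at, read 21208, 22891 and 19103 with leptin, compared with 24135 and 23724 on saline replicates 2 and 3, and 6533 on saline replicate 1. All leptin arrays lay below both of these saline arrays, a difference of -0.19 ± 0.10 (SE; interval -0.42 to 0.04), which quantile normalization took to -0.05. The other, 1451776_s_at, read 5819, 6276 and 5098 with leptin and 6075 and 6918 with saline, and here the groups overlapped. It gave -0.18 ± 0.13 (SE), and -0.15 with quantile normalization. On the deposited scale both probe sets thus gave nearly the same difference at brightness levels far apart, but not after quantile normalization.

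Cldn18 (56492) encodes claudin 18, a tight junction protein of the alveolar barrier. Probe set 1449428_at read 4756, 5711 and 5543 with leptin, compared with 5199 and 4506 on saline replicates 2 and 3, and 235.8 on saline replicate 1. The groups overlapped, with a difference of 0.14 ± 0.13 (SE; interval -0.14 to 0.41). The dimmer 1425445_a_at read 1757, 1346 and 1170 with leptin and 1388 and 1387 with saline, and 152.5 on saline replicate 1. It gave 0.02 ± 0.17 (SE), and its leptin values spread from above to below the nearly equal saline values.

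Emp2 (13731) encodes epithelial membrane protein 2, a 4-pass membrane protein that organises integrins and caveolae. Its brightest probe set, 1433670_at, read 7641, 7574 and 8230 with leptin and 7941 and 7852 with saline. Its coefficient of variation over these 5 arrays, 3.33%, was the lowest of the 13, and its difference was -0.02 ± 0.10 (SE; 0.844-fold to 1.16-fold). The second, 1425272_at, read 3922, 3855 and 3761 with leptin and 3383 and 3704 with saline, without overlap, at 0.12 ± 0.11 (SE). The third, 1425273_s_at, read 3952, 3140 and 2179 with leptin and 2837 and 2671 with saline. It gave the same 0.12 with a wider SE of 0.20, and its leptin arrays reached both above and below the saline arrays. On saline replicate 1 the 3 read 2092, 485.5 and 106.8.

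Sema3e (20349) encodes semaphorin 3E, a secreted ligand of plexin D1 on endothelial cells. Probe set 1419717_at, the brightest, read 948.7, 1418 and 1167 with leptin, compared with 880.5 and 938.6 on saline replicates 2 and 3, and 261.1 on saline replicate 1. The leptin arrays all read above the saline arrays, though leptin replicate 1 exceeded saline replicate 3 by little. The difference was 0.35 ± 0.17 (SE; interval -0.03 to 0.73), and it ranged from 0.21 without leptin replicate 2 to 0.49 without leptin replicate 1. Probe set 1425906_a_at, the dimmest of the 13, read 331.0, 369.4 and 287.0 with leptin, compared with 105.4 and 304.5 on saline replicates 2 and 3, and 426.6 on saline replicate 1. Its difference of 0.78 ± 0.32 (SE; interval 0.06 to 1.49; limma adjusted p = 1) was the one under an unadjusted p of 0.05 in limma, though not in the pooled test, and it rested on saline replicate 2: the other saline array lay among the leptin arrays. Without saline replicate 2 it was 0.10, and without saline replicate 3 it was 1.46. The remaining probe set, 1427673_a_at, read 693.1, 728.8 and 524.0 with leptin and 650.4 and 538.2 with saline, and 190.2 on saline replicate 1. It gave 0.11 ± 0.18 (SE), and -0.02 without saline replicate 3, so the 3 Sema3e probe sets did not give 1 common size.

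**Figure D2:**
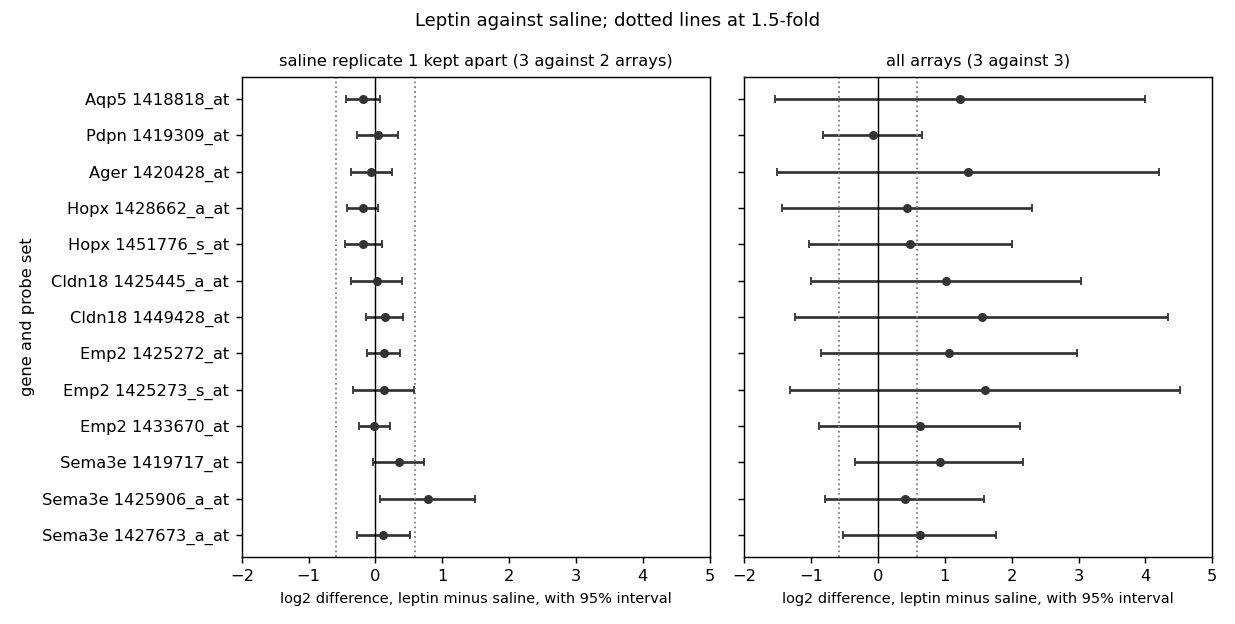
Log2 difference, leptin minus saline, with its 95% interval from limma, for the 13 probe sets, on 5 arrays (left) and on all 6 (right). On the left 11 intervals lie within the dotted lines at 1.5-fold, and on the right none does.

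The spread of these genes over leptin and saline arrays together was close to that of other bright probe sets. It includes any difference between the groups. Over the 5 arrays the coefficient of variation had a median of 11% for the 13 probe sets, from 3.33% to 36.5% for the dimmest Sema3e probe set. It was 10.6% for the brightest 25% of all probe sets, which hold 12 of the 13, and 17.8% for all. Leptin replicate 3 held the lowest value of the 5 arrays for 6 of the 13 probe sets (Ager, both Hopx, and 1 each of Cldn18, Emp2 and Sema3e), as it did for 23.7% of all probe sets. Leptin replicate 2 held the highest for 5, as it did for 19.6% of all probe sets. Probe sets of 1 gene share their transcripts and are not separate evidence.

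As a list with 1 probe set per gene, the brightest, the 7 measured type I genes gave 3 higher and 4 lower with leptin and a median difference of -0.02. Over all 9365 genes tested on the 5 arrays the median was -0.01, with 48.3% higher. No member passed the threshold, against 5 of these 9365 genes.

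A second list of known type I genes, without the members, had a median like theirs. Of its 22 genes 18 were tested, 8 higher and 10 lower with a median of -0.02, and 0 passed the threshold in limma, with 2 higher and 1 lower at an unadjusted p under 0.05, against 212 higher and 189 lower of all 9365 genes. The lower one was Cyp2b10, a cytochrome P450, at -0.24 ± 0.11 (SE; limma adjusted p = 1), named after its value was seen. Igfbp2, an insulin-like growth factor binding protein of mature type I cells, read 2003, 2093 and 2423 with leptin against 1517 and 1691 on saline replicates 2 and 3. It differed by 0.43 ± 0.14 (SE; limma adjusted p = 0.936). Vegfa, the endothelial growth factor that type I cells secrete, read 2093, 2127 and 2207 with leptin and 1800 and 1603 with saline, at 0.33 ± 0.12 (SE; adjusted p = 1 in limma). Both genes were picked for the smallest p of this list. All their leptin arrays read above these saline arrays, and groups without overlap were found for 19.6% of all probe sets. On saline replicate 1 Igfbp2 read 412.6 and Vegfa 2168.

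Type II cell genes, the surfactant-producing lineage, gave 4 of 12 higher, a median of -0.11 and 0 calls, with 1 at an unadjusted p under 0.05 in limma. Sftpb, a surfactant protein, was at -0.22 ± 0.10 (SE) and Muc1, an apical mucin, at -0.20 ± 0.11. Genes of the transitional state between type II and type I cells gave 3 of 8 higher, a median of -0.10, and 0 calls, with 0 at an unadjusted p under 0.05 in limma. Lgals3, or galectin 3, was at -0.23 ± 0.13 (SE) and Krt19, a keratin, at -0.14 ± 0.13, which was -0.24 when saline replicate 2 was left out and -0.04 when saline replicate 3 was.

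Tight junction genes that act with Cldn18 gave 3 of 8 higher, a median of -0.03, and 0 calls, with 0 at an unadjusted p under 0.05 in limma. Tjp1, the scaffold ZO-1, read 5114, 4790 and 5127 with leptin against 6034 and 5745 on saline replicates 2 and 3. It was at -0.23 ± 0.11 (SE), and Ocln, or occludin, at -0.36 ± 0.21, which was -0.63 when saline replicate 2 was left out and -0.09 when saline replicate 3 was. Binding partners of the members gave 10 of 14 higher with a median of 0.04, and 0 calls, with 0 at an unadjusted p under 0.05 in limma. Plxnd1, the Sema3e receptor, was at -0.25 ± 0.22 (SE) and Rdx, or radixin, at 0.21 ± 0.15. Plxnd1 ran from -0.43 without saline replicate 3 to -0.03 without leptin replicate 1, and was at -0.03 with the replicate block too. Rdx was 0.04 when saline replicate 2 was left out and 0.39 when saline replicate 3 was.

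Markers of other cell types gave the following values on the same 5 arrays. Mesenchymal and smooth muscle genes read higher in 8 of 8 (median 0.46, 0 called, 5 at an unadjusted p under 0.05 in limma). Red cell genes read lower in 4 of 4 tested, of 5 on the array (median -0.97, 2 called and 3 at an unadjusted p under 0.05 in limma). With the replicate block 0 probe sets of any gene were called. Endothelial genes gave 6 of 8 higher (median 0.09, 1 at an unadjusted p under 0.05 in limma). Macrophage genes gave 4 of 4 tested, of 5 on the array (0.12), and club and ciliated cell genes 3 of 6 (-0.02), with 0 under that p in both lists. Over all 9365 genes tested 48.3% read higher and 5 were called. At an unadjusted p under 0.05 in limma, 212 were higher and 189 lower. The part of these cell types in the type I values was not tested.

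**Figure D3:**
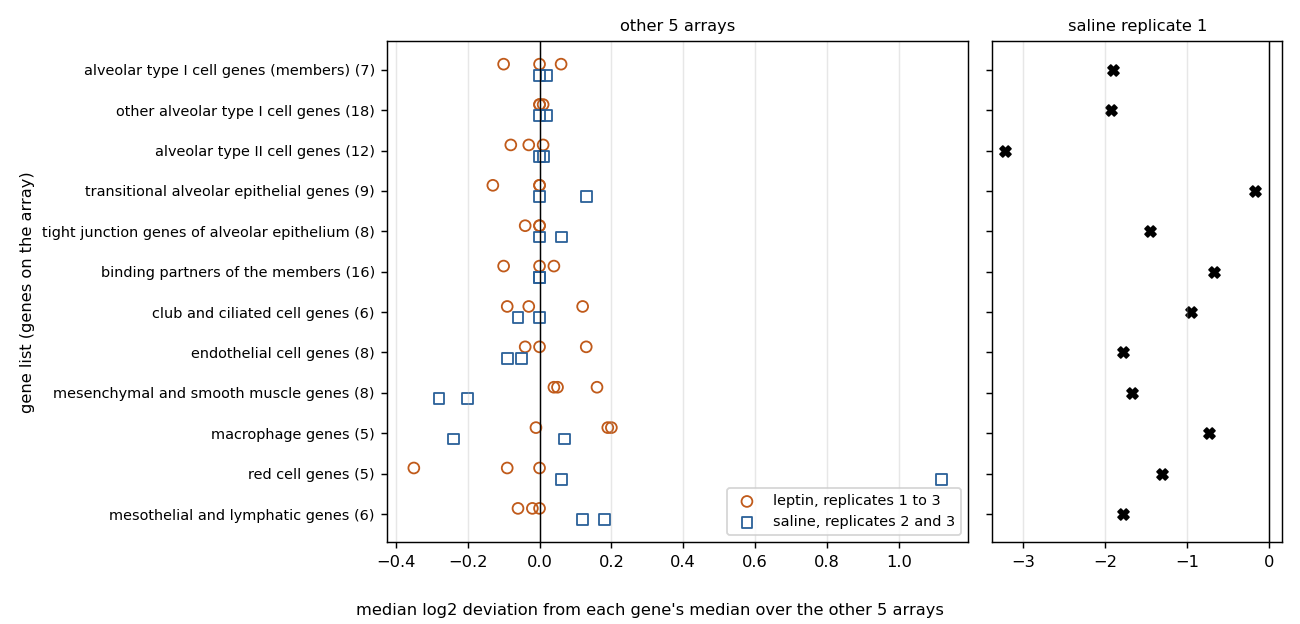
Median log2 deviation of each gene list on each array, taken from each gene's median over the 5 arrays other than saline replicate 1; circles are leptin arrays, squares saline replicates 2 and 3 (left), and crosses saline replicate 1 (right, on its own scale). Type I cell genes stay between -0.10 and 0.06 on the left and reach -1.90 on the right.

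With all 6 arrays, the values of the set were larger and far less certain. The median difference over the 7 genes was 0.92, against 0.02 over all 9419 genes tested, with 6 of 7 higher, against 51.0% of all. The 13 probe sets ran from -0.08 to 1.60 with SEs of 0.31 to 1.21, and Pdpn alone was below 0. Of the 13, 0 passed the threshold in limma, against 0% of all 15839 probe sets, with adjusted p-values of 0.715 to 0.895. At an unadjusted limma p under 0.05 there were 0, against 0.385% of all. The pooled test also gave 0, and its share over all probe sets was not counted. The series' rule, with 6 of 9 pairwise comparisons, was met by 0, against 0.202%. Groups without overlap were found for 2 (1425272_at of Emp2 and 1419717_at of Sema3e), against 9.1%. No interval lay within 1.5-fold, against 0.423% of all, and the widest reached 23.0-fold. Aqp5 went from -0.19 on 5 arrays to 1.22 ± 1.15 (SE) on 6, Ager from -0.07 to 1.35 ± 1.18, and Hopx, by 1428662_a_at, from -0.19 to 0.44 ± 0.78. The sign of each of these 3 thus turned on saline replicate 1. Pdpn went from 0.03 to -0.08 ± 0.31, and to 0.07 on 6 arrays set to a common median, a scaling that took the median of all probe sets from 0.02 to 0.17.

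Saline replicate 1 did not lower all members alike. It read below every other array for 11 of the 13 probe sets, as it did for 33.8% of all probe sets and 71.5% of the brightest 25%. The median member probe set was 3.76-fold lower there than the median of the other 5 arrays, and the median of the brightest 25% was 2.29-fold lower. The 1425273_s_at probe set of Emp2 was 26.6-fold lower, 1449428_at of Cldn18 22.0-fold, Ager 19.4-fold and Aqp5 18.9-fold. Hopx was 3.50-fold and 3.76-fold lower by its 2 probe sets, and Emp2 by 1433670_at 3.75-fold. The size differed between probe sets of 1 gene, most of all in Emp2.

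Pdpn and the dimmest Sema3e probe set read higher on saline replicate 1 than on any other array, at 1.21 and 1.40 times the median of the 5, as did 54.6% of all probe sets but 19.7% of the brightest 25%. Pdpn therefore kept its brightness percentile, 98.0 against 95 to 96.3 on the other arrays, while Aqp5 went to 35.6 from 96.6 to 97.3. Podoplanin is shared with mesothelium and lymphatic vessels, and markers of those cells did not read high together there. Their list had a median deviation of -1.79 on saline replicate 1, with 4 of its 6 genes below all other arrays and 2 above. Msln, or mesothelin, read 21.6 against 494.8 to 703.8, and Lyve1, a lymphatic receptor, 512.3 against 2767 to 3317. Upk3b read 796.0 against 2070 to 2566 and Flt4 221.8 against 805.5 to 1152. Prox1, the lymphatic transcription factor, read 1157 against 36.2 to 97.3, and Wt1 104.2 against 67.7 to 96.7. The part of these cells in the Pdpn value was not tested. The type I list as a whole was at -1.90 on this array, the second type I list at -1.93 and the type II list at -3.22. The median over all probe sets was 0.55, but the lists take the brightest probe set of each gene. The median of the brightest 25% of all probe sets was 2.29-fold lower there. The endothelial list was at -1.78 and the mesenchymal and smooth muscle list at -1.68. Red cell genes were at -1.31, club and ciliated cell genes at -0.96 and macrophage genes at -0.73.

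**Figure D4:**
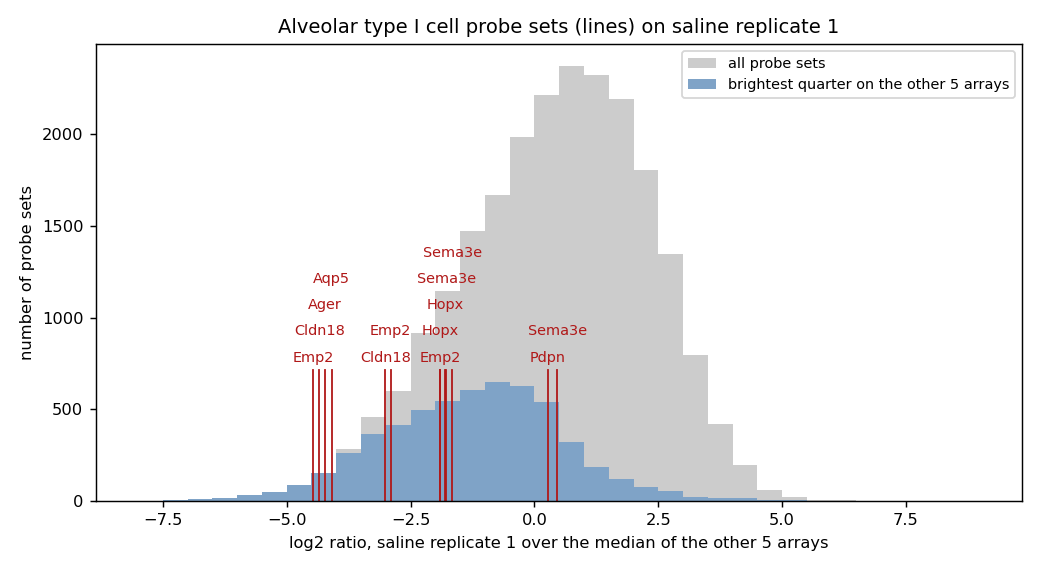
Number of probe sets by log2 ratio of saline replicate 1 to the median of the other 5 arrays, for all probe sets (grey) and the brightest 25% (blue), with a line for each of the 13 type I cell probe sets. Pdpn and 1 Sema3e line lie above 0 and the other 11 below it.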

How the data were processed

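The authors' deposited table holds 1 linear intensity per probe set and array. No source used here names its software or summarisation. The authors had scaled each array to a common mean, per the deposited values: a mean without the lowest and highest 2% lies between 500.10 and 500.14. Per the labels' protocols, Trizol RNA was amplified and labelled from an oligo(dT) primer. Of 22690 probe sets, 64 controls were dropped. Values became log2(intensity + 22), probe sets in the dimmest 30% by mean were dropped, and limma 3.58.1 in R 4.3.3 (lmFit, eBayes with trend, two-sided, Benjamini-Hochberg, threshold 0.05) was run on all 15839 remaining probe sets, once without saline replicate 1 and once with it. The fits were also run on simulated data. No result of that run is given here, so it does not show how they treat an array like saline replicate 1. Deviations of same-numbered arrays gave r of 0.103 to 0.144, and those of different-numbered arrays -0.147 to 0.0491. These pairs share arrays, saline replicate 1 among them, so they cannot decide whether the numbers pair the animals. A fit with the number as a block left the members' calls at 0.

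The members, lists and tests were chosen with earlier results of these data known. All probe sets of a member are named, and of the alveolar and partner lists the 2 genes with the smallest p. Other lists are given as counts, but all 6 genes of the mesothelial and lymphatic list are named for saline replicate 1. Further genes named for that array follow no rule set beforehand. The alternatives tried were a common median, quantile normalization, pseudocounts of 79.9 and 1, a 50% filter or none, the block, no trend, array weights, averaging the probe sets of a gene, and leaving out each array.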

Additional observations from a re-analysis of the deposited data

How the results depend on the processing

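No member passed the threshold under the alternatives that count calls (all but averaging a gene's probe sets; array weights on 6 arrays only). The 7 calls over all probe sets on 5 arrays fell to 0 with the replicate block, no trend, no filter, a pseudocount of 1, a common median and quantile normalization, and to between 0 and 3 when another array was left out. On 6 arrays array weights gave 8 calls (weight of saline replicate 1, 0.0257), and leaving out 1 array 0 to 7. The median member difference on 5 arrays ran from -0.05 to 0.01 with 1 array left out. On 6 arrays it was -0.01 with array weights, and from -0.02, without saline replicate 1, to 1.23 with 1 array left out. The replicate block on 5 arrays turned 1425445_a_at of Cldn18 to -0.14 and 1425273_s_at of Emp2 to -0.07, and changed no other direction or call of a member. Pairing gains no value from leptin replicate 1, whose partner is left out there. With array weights on 6 arrays Aqp5 turned to -0.15, Ager to -0.03, Hopx to -0.17 and -0.15, 1433670_at of Emp2 to -0.01 and Pdpn to 0.07, and Pdpn also to 0.07 with a common median. The cause was not tested. With 1 array left out of 5, the ranges that crossed 0 were -0.20 to 0.04 for Ager, -0.14 to 0.21 for Pdpn, -0.14 to 0.15 for 1425445_a_at of Cldn18, -0.07 to 0.35 and -0.05 to 0.01 for 1425273_s_at and 1433670_at of Emp2, and -0.02 to 0.26 for 1427673_a_at of Sema3e. Out of 6, they were -0.19 to 1.96 for Aqp5, -0.07 to 2.06 for Ager, -0.19 to 0.75 and -0.18 to 0.86 for Hopx, -0.02 to 0.94 for 1433670_at of Emp2, -0.22 to 0.03 for Pdpn and -0.13 to 0.78 for 1425906_a_at of Sema3e. A lone saline array is assumed to vary like the others.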

Other observations

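On saline replicate 1, transitional epithelial genes read in both directions, with a list median of -0.17. Cldn4, a claudin of stressed alveolar epithelium, read 951.4 there against 150.2 to 259.7 on the other 5 arrays, Itgb6, an epithelial integrin chain, 505.4 against 120.0 to 237.0, and Krt8, a keratin, 3369 against 2172 to 2580. Krt19, another keratin, read 74.4 against 1754 to 2144 and Ccn2, a matricellular YAP target, 364.5 against 3028 to 4822. Of the 9 genes on the array 4 read above all other arrays and 5 below, where the type II list had 12 of 12 below. Both counts take each gene's probe set that was brightest on the other 5 arrays. Another probe set of Etv5, a type II gene, read 569.8 on saline replicate 1, within the 432.3 to 925.1 of the others. Another of Lpcat1, also a type II gene, read 2396.2, below their 7829.1 to 11013.3. Of all probe sets 54.6% read above and 33.8% below, and of the brightest 25% 19.7% above and 71.5% below. Cldn4 and Itgb6 were dimmer on the other arrays than every type II gene, and the part of brightness in these counts was not tested.

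Within the second type I list, 16 of 18 genes read below all other arrays by their brightest probe set on the other 5. So did 33.8% of all probe sets and 71.5% of the brightest 25%. Vegfa lay within the range of the other 5 arrays, and Col4a4, a basement membrane collagen chain, read 1821 against 417.6 to 636.9. Its partner chain Col4a3 read 154.8 against 1017 to 1512. The 3 probe sets of Cryab, a small heat shock protein, went different ways: 1416455_a_at read 52.6 against 2372 to 3301, 1434369_a_at 27850 against 1451 to 2360, and 1435837_at 474.5 against 65.8 to 115.9. These are values of 1 array, with no test.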
